A study of Mus musculus with 2 samples.

Results

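The vascular endothelial growth factor (VEGF) family was described across the cells of the newborn mouse heart through 10 genes, 5 ligands (Vegfa, Vegfb, Vegfc, Vegfd and Pgf) and 5 receptors or co-receptors (Flt1, Kdr, Flt4, Nrp1 and Nrp2). They were taken by symbol from the 31053 genes measured, with no regard to their values, and all 10 were present in the data of both ages. The single cell RNA-seq data compared intact hearts at postnatal day (P) 1 and P7, ages between which the study asked how hypoxia-related pathways differ. For each age 3 hearts of the same litter were pooled, digested in collagenase II for 20 min at P1 and 45 min at P7, and sorted for live cells that excluded 7-AAD. The labels give no strain, genotype or treatment for these mice. There was 1 library per age and hence no replicate. No test between ages was possible, and age cannot be told apart from litter, digestion time or sex.

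VEGF ligands are secreted by many cells and act mainly on endothelium. VEGF-A is the main signal for vessel growth and acts through KDR (VEGFR2), which carries most of the response, while FLT1 (VEGFR1) binds VEGF-A tightly with weak kinase activity and also serves VEGF-B and placental growth factor (the product of Pgf). VEGF-C and VEGF-D act on FLT4 (VEGFR3), which is characteristic of lymphatic endothelium, and neuropilins (Nrp1 and Nrp2) are co-receptors that are shared with semaphorins.

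The deposited data gave unique molecular identifier (UMI) counts, in which each captured mRNA molecule is counted 1 time. Barcodes with 200 to 8000 genes and at most 20% mitochondrial UMIs were kept, which left 4991 of 7836 at P1 and 8511 of 9077 at P7, with a median of 10875 and 10104 UMIs. A total of 13 barcode sequences were shared by kept cells of the libraries. Xist gave 57336 UMIs at P1 and 12 at P7, and 4 Y-linked genes gave 2 and 18039, so the P1 library behaved as female and the P7 library as male. P1 cells with at least 10 UMIs of Sftpc, a surfactant gene of the alveolar epithelium of the lung, numbered 6, and P7 cells 0. They were set apart from every class and from all kept cells (4985 and 8511). A further 538 kept cells at P1 and 1 at P7 held at least 1 but under 10 Sftpc UMIs and were not set apart. The part of lung epithelial RNA in the levels of such cells was not tested. Foxf1, a transcription factor of lung mesenchyme and lung endothelium, was at 40.9 CPM (UMIs per 1000000 UMIs) in P1 endothelium and at 0.317 CPM at P7. Some endothelial results are therefore also given without cells holding a UMI of Foxf1, Tbx4 or Hoxa5. These are ratios between the ages in all endothelium and in its Aplnr+ subset, defined below, and the Vegfc level of that subset at P1.

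Cells were assigned to 6 classes by 1 gene each, none of them a VEGF gene, and a cell passing several gates entered none of the classes. Cdh5+ cells (endothelium) numbered 1619 at P1 and 3200 at P7, Pdgfra+ cells (fibroblasts) 960 and 1952, Myh11+ cells (smooth muscle) 129 and 371, Kcnj8+ cells (pericytes) 187 and 338, Csf1r+ cells (macrophages) 198 and 198, and Tnnt2-rich cells (cardiomyocytes) 81 and 12. In each class the markers checked were over 2-fold above the other cells at both ages. No gate was passed by 1524 P1 cells and 1763 P7 cells (ungated cells). Levels are the UMIs of a gene summed over a class, divided by all UMIs of that class and given as CPM. Values in brackets are 95% intervals that cover counting error only, exact Poisson for levels. A summed level does not tell fewer expressing cells from less RNA per cell. The study stated that cardiomyocytes were underrepresented, through low survival and a size unsuited to the sorting. Shares of UMIs held by a class therefore describe the sorted cells and not the whole heart.

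The members lie on 8 chromosomes. In GENCODE M21 (GRCm38), Flt1 (chr5:147561604-147726011, minus strand) and Kdr (chr5:75932827-75978458, minus strand) share chromosome 5 and Vegfc (chr8:54077606-54187096) and Nrp1 (chr8:128358604-128503363) share chromosome 8, both on the plus strand. Vegfa is at chr17:46016993-46032369 and Vegfb at chr19:6982473-6987651, both on the minus strand. Vegfd (chrX:164373378-164402650, plus strand) is the member on the X chromosome, and Pgf is at chr12:85166635-85177790 on the minus strand. Flt4 (chr11:49609263-49652739) and Nrp2 (chr1:62703285-62818695) lie on the plus strand. No other measured gene overlapped a member on the same strand, and Nrp2 was overlapped by Gm29083 on the other strand.

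Upstream sequences are shown for Kdr and Flt1, which had nearly all their UMIs in endothelium, and for Vegfb, which was highest in cardiomyocytes. Each runs from 200 to 11 bases before the RefSeq start (GRCm38.p6, minus strand) and was read 5′ to 3′. Capitals mark GGAA and its reverse complement TTCC, the core recognised by ETS factors, a family that includes regulators of endothelial genes. The Kdr stretch (chr5:75978466-75978655) held 3 such cores, the Flt1 stretch (chr5:147726022-147726211) 4 together with a TATAAA, and the Vegfb stretch (chr19:6987662-6987851) 1. The core was found in 87.6% of 27020 promoter stretches of 190 bases, so its presence sets none of them apart. ACGTG, a form of the core bound by hypoxia-inducible factors, was in 13.3% of all stretches on either strand and in 0 of the 10 members' stretches. The other form, GCGTG, was not counted. Read on either strand, it is present in the printed Kdr, Flt1 and Vegfb stretches, so the 0 does not show that the core was absent.
Kdr: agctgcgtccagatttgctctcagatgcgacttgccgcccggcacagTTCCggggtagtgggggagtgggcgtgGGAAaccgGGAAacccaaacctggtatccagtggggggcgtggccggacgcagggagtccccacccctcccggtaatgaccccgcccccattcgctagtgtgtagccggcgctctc
Flt1: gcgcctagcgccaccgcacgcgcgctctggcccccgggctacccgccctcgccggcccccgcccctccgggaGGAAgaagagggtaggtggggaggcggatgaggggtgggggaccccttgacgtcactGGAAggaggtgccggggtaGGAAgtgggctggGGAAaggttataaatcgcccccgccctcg
Vegfb: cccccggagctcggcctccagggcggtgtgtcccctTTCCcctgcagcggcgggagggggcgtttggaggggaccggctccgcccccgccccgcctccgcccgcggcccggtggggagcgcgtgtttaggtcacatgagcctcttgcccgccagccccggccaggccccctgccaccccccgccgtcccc

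The 5 receptors and co-receptors were concentrated in endothelium at both ages. Each was at least 4-fold higher in Cdh5+ cells than in all other kept cells, 5 of 10 members at P1 and the same 5 at P7, where 4.12% of 15155 genes at P1 and 4.80% of 15465 genes at P7 passed that limit. None of the 5 ligands passed it. Nrp1 was closest to the limit, at 4.22-fold and 4.20-fold, and the count was 4 in each library when the gates asked for 1 UMI or when CPM was averaged over cells.

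Kdr was at 524 CPM (513 to 534) in P1 endothelium and 642 CPM (632 to 651) at P7. This was 21.6-fold and 18.8-fold above all other kept cells, and Cdh5+ cells held 91.3% of its UMIs at P1 and 88.6% at P7. Kdr was detected in 1477 of 1619 Cdh5+ cells at P1 and 3007 of 3200 at P7. After thinning each cell to 2000 UMIs the shares were 60.7% (58.2 to 63.1) and 68.9% (67.3 to 70.6). In the other 5 classes Kdr was at 10.8 CPM or lower, and lymphocytes, which should lack it, held 0 UMIs at P1, which allows up to 16.0 CPM (3 counts), and 10.6 CPM (6.57 to 16.2) at P7. The levels in these 5 classes were read as background. Ungated cells had 25.2 CPM and 33.5 CPM. Higher levels were found in the 50 Upk3b+ cells (epicardium) of P1, with 96 UMIs or 128 CPM (104 to 156), against 19 UMIs or 40.7 CPM (24.5 to 63.6) in 31 cells at P7.

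Flt1 was at 342 CPM (334 to 350) and 334 CPM (328 to 341) in Cdh5+ cells of P1 and P7, which held 88.2% and 87.1% of its UMIs. The level was 15.5-fold and 16.4-fold above the other kept cells. Kcnj8+ cells followed with 18.2 CPM (12.8 to 25.2) at P1 and 27.1 CPM (21.5 to 33.7) at P7. Lymphocytes had 8.09 CPM (4.62 to 13.1) at P7. The 7 endothelial markers summed to 312 CPM and 427 CPM in Kcnj8+ cells, of which Esam gave 177 CPM and 305 CPM, against 5448 CPM and 5766 CPM in Cdh5+ cells and 186 CPM in P7 lymphocytes. All 7 were detected in Kcnj8+ cells at both ages, and their part in the Flt1 level was not tested. Pdgfra+ cells were at 4.18 CPM and 2.97 CPM. Flt1 and Kdr thus shared the same leading class, with little signal in fibroblasts.

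Flt4 was the least abundant receptor, at 30.1 CPM (27.7 to 32.6) at P1 and 42.2 CPM (39.9 to 44.7) at P7 in Cdh5+ cells. It was 7.80-fold and 13.5-fold above the other kept cells, and 79.0% and 84.8% of its UMIs were endothelial. Kcnj8+ cells came next, with 12.2 CPM (7.79 to 18.1) and 8.70 CPM (5.69 to 12.8), from 24 and 26 UMIs. Every other class was at 2.08 CPM or lower. The UMIs in Kcnj8+ cells were spread over 22 cells at P1 and 24 at P7. The part of the endothelial markers present in these cells, given with Flt1 above, was not tested.

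The neuropilins differed in how widely they were expressed. Nrp1 was at 456 CPM (446 to 465) and 563 CPM (554 to 571) in Cdh5+ cells, but those cells held only 67.1% and 63.3% of its UMIs. Kcnj8+ cells had 224 CPM (203 to 246) at P1 and 204 CPM (188 to 221) at P7, and Myh11+ cells 96.3 CPM (81.6 to 113) and 124 CPM (114 to 136). Pdgfra+ cells had 78.9 CPM (74.7 to 83.3) and 99.3 CPM (96.0 to 103), which at P1 did not differ from Myh11+ cells beyond their intervals. Csf1r+ cells had 66.7 CPM (56.8 to 77.9) and 134 CPM (119 to 151), the latter not separated from Myh11+ cells. Apart from P1 macrophages, these levels had intervals above the Nrp1 level of lymphocytes, 26.7 CPM (8.67 to 62.3) and 39.4 CPM (31.2 to 49.2). Nrp2, the co-receptor used with FLT4, was nearly restricted to endothelium, at 206 CPM (199 to 212) and 374 CPM (367 to 381), with 86.5% and 86.2% of its UMIs in Cdh5+ cells. Csf1r+ cells were next for Nrp2 at 21.3 CPM (15.8 to 28.0) and 23.3 CPM (17.4 to 30.6). The P7 level was above the 6.57 CPM (3.50 to 11.2) of P7 lymphocytes. P1 lymphocytes held 1 Nrp2 UMI (5.34 CPM), too few to set the P1 level apart from them.

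**Figure D1:**
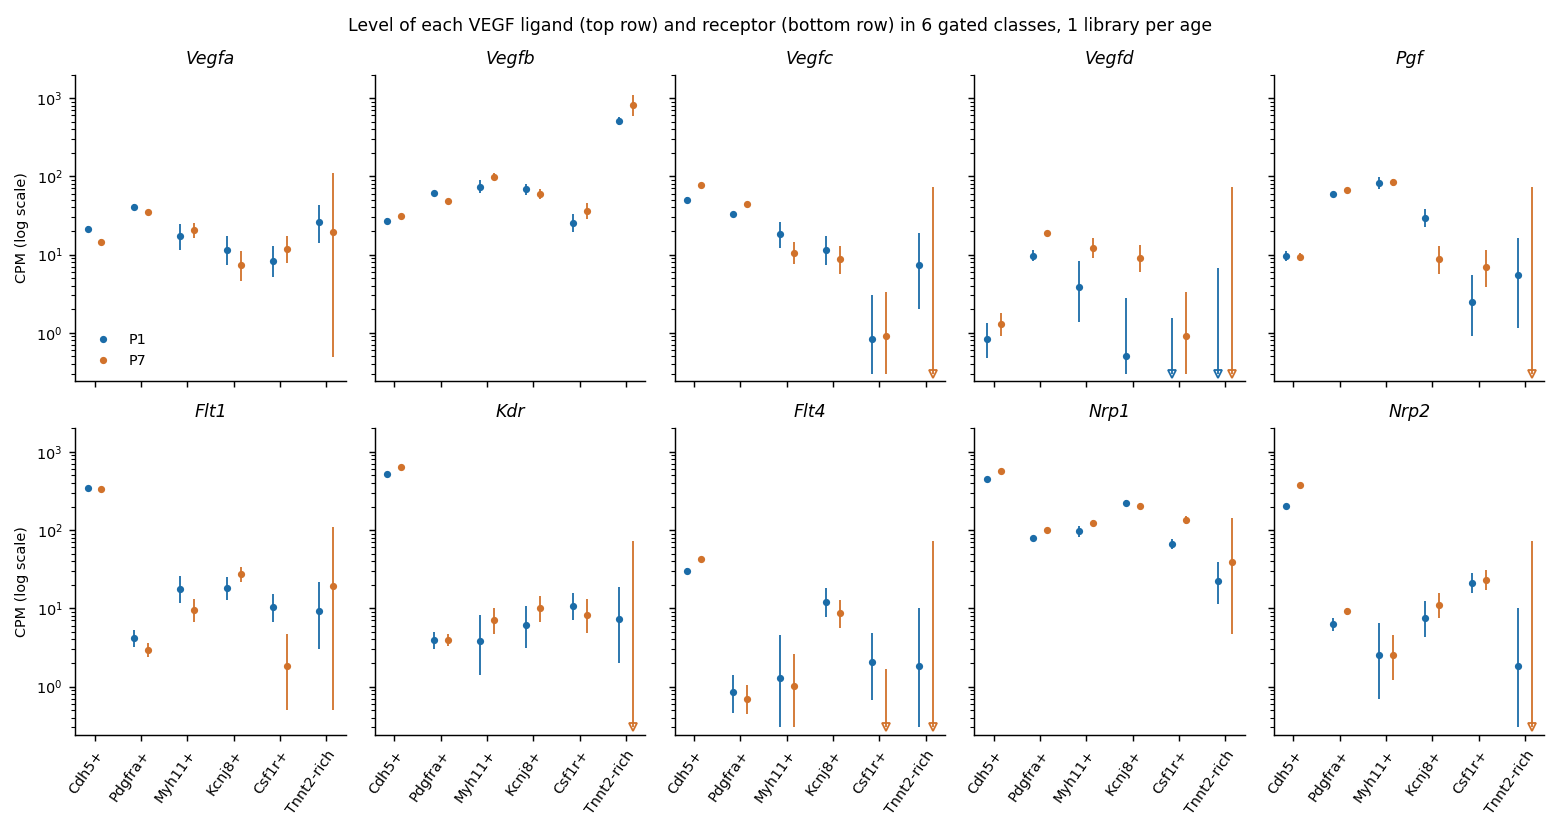
Level of each member in CPM (log axis) in the 6 classes of the P1 (blue) and P7 (orange) libraries. Points are summed levels of 1 library, lines are exact 95% Poisson intervals, and open triangles at the bottom mark 0 UMIs. The 5 receptors peak in Cdh5+ cells at both ages, Vegfb peaks in Tnnt2-rich cells (508 and 821 CPM), and Nrp1 is the receptor with the highest level in Kcnj8+ cells.

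Within the endothelium, 4 subsets were drawn by 1 gene each. Gja5+ cells (arterial) numbered 36 at P1 and 138 at P7, Aplnr+ cells (capillary and venous) 803 and 2334, Npr3+ cells (endocardial) 189 and 51, and Prox1+ cells (lymphatic) 24 and 24. A further 423 and 555 Cdh5+ cells held none of these genes and 144 and 98 held several. Of the subset markers checked, all were over 2-fold above all other kept cells except Nr2f2 in Aplnr+ cells at both ages and Hapln1 in Npr3+ cells at P1. The comparison was not with other Cdh5+ cells. All Cdh5+ cells together also passed for 5 of 5 arterial markers at both ages, so this check does not set the subsets apart from each other. The receptors were distributed unevenly over the subsets. By summed level Flt1 was highest in arterial cells, Kdr in capillary and venous cells, and Flt4 and Nrp2 in lymphatic cells at both ages. The lymphatic lead of Nrp2 at P7 lay within the intervals.

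Flt1 was at 581 CPM (514 to 654) in Gja5+ cells at P1 and 829 CPM (779 to 881) at P7. Aplnr+ cells had 314 CPM (303 to 326) and 286 CPM (279 to 294) of Flt1, and the arterial intervals lay above these at both ages. Kdr had the opposite order, with 611 CPM (595 to 627) and 691 CPM (680 to 702) in Aplnr+ cells and 448 CPM (389 to 513) and 361 CPM (328 to 396) in Gja5+ cells. Endocardial Npr3+ cells were lowest in Kdr, at 194 CPM (177 to 211) and 162 CPM (132 to 197), yet held Flt1 at 337 CPM (315 to 360) and 422 CPM (373 to 476). In cells thinned to 2000 UMIs, Kdr without Flt1 was found in 35.5% of Aplnr+ cells at P1 and 41.3% at P7, against 13.4% and 7.84% of Npr3+ cells. Flt1 without Kdr was found in 11.6% and 10.7% of Aplnr+ cells and in 32.3% and 43.1% of Npr3+ cells. A missing UMI at this depth does not show that the transcript was absent, and both were found together in 31.8% and 32.1% of all Cdh5+ cells.

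Flt4 was at 150 CPM (110 to 201) in Prox1+ cells at P1 and 356 CPM (289 to 434) at P7, from 46 and 98 UMIs. It was 5.40-fold and 9.13-fold above the other Cdh5+ cells, a level of enrichment (at least 4-fold) reached by 3.31% of 12202 genes at P1 and 6.55% of 12655 genes at P7. Aplnr+ cells had 29.1 CPM (25.8 to 32.7) and 41.8 CPM (39.1 to 44.6) of Flt4, so the receptor was not limited to lymphatic cells. Nrp2 followed a similar order. Its level was 422 CPM (352 to 501) and 494 CPM (414 to 584) in Prox1+ cells, 253 CPM (243 to 263) and 425 CPM (416 to 434) in Aplnr+ cells, and 27.9 CPM (14.8 to 47.7) and 38.9 CPM (28.7 to 51.6) in Gja5+ cells. At P7 the Nrp2 intervals of Prox1+ and Aplnr+ cells overlapped. In Prox1+ cells 1 cell held 36 of the 129 Nrp2 UMIs at P1, and 1 cell 42 of the 136 at P7. In thinned P7 cells Nrp2 was found with Nrp1 in 4.17% and without it in 33.3% of Prox1+ cells. For Aplnr+ cells these shares were 35.8% and 16.0%, so by share of cells Prox1+ cells did not lead at P7. Nrp1 was lowest in Prox1+ cells, at 248 CPM (196 to 311) and 102 CPM (67.6 to 147), and reached 639 CPM (568 to 716) and 607 CPM (565 to 652) in Gja5+ cells, with 464 CPM (439 to 492) and 656 CPM (594 to 722) in Npr3+ cells. Arterial cells thus held Nrp1 with little Nrp2, and in thinned cells 75.0% of them at P1 and 60.3% at P7 had Nrp1 alone.

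**Figure D2:**
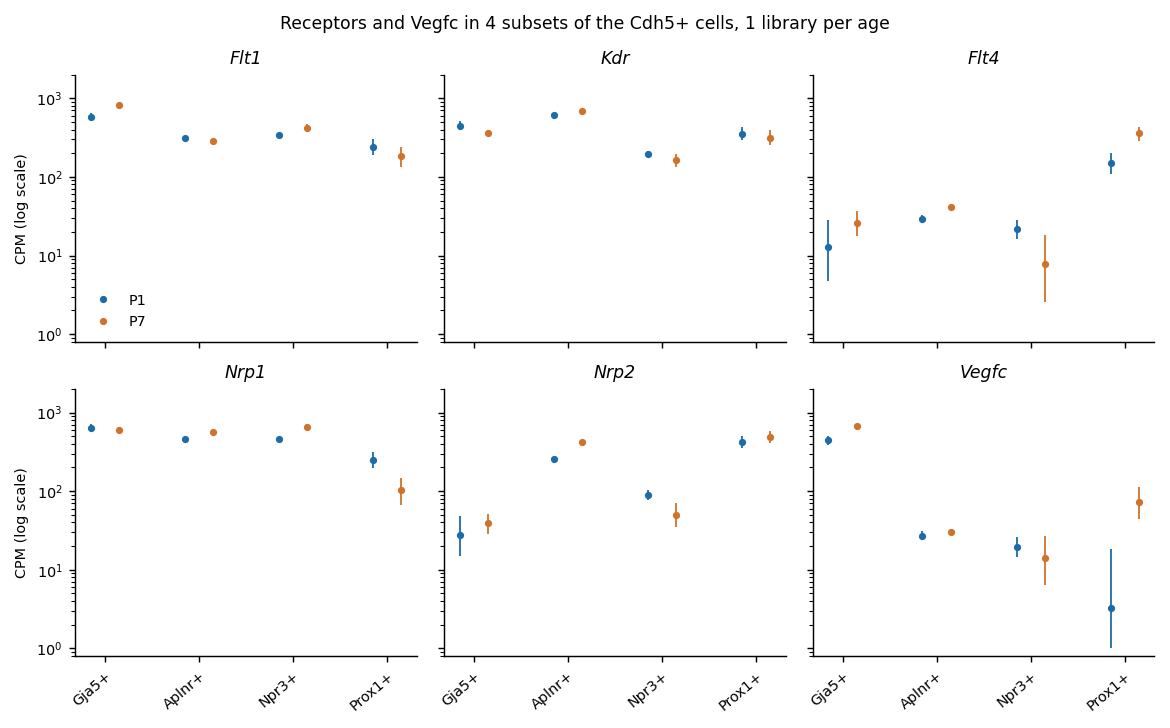
Level in CPM (log axis) of the 5 receptors and of Vegfc in 4 subsets of Cdh5+ cells at P1 (blue) and P7 (orange). Points are summed levels of 1 library and lines exact 95% Poisson intervals. Vegfc (442 and 667 CPM) and Flt1 are highest in Gja5+ cells, Kdr in Aplnr+ cells, and Flt4 in Prox1+ cells, where each library had 24 cells.

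Most UMIs of each ligand lay outside Cdh5+ cells, but the class with the highest level differed. Pdgfra+ cells had the highest level of Vegfa and Vegfd at both ages, Myh11+ cells of Pgf, and Tnnt2-rich cells of Vegfb, while Vegfc was highest in Cdh5+ cells. Thus 6 of 10 members were highest in endothelium at each age, Vegfc and the 5 receptors.

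Vegfa was at 40.7 CPM (37.7 to 43.9) in Pdgfra+ cells at P1 and 35.0 CPM (33.0 to 37.0) at P7, and these cells held 38.2% and 51.7% of its UMIs. Endothelium had 21.4 CPM (19.4 to 23.5) and 14.5 CPM (13.1 to 15.9). Tnnt2-rich cells had 25.8 CPM (14.1 to 43.2) from 14 UMIs at P1 and 19.5 CPM (0.495 to 109) from 1 UMI at P7, so their place in the order could not be settled at this depth. At P7 all 6 classes lay above the lymphocyte level of 2.53 CPM (0.821 to 5.90), although the intervals of Kcnj8+ and Tnnt2-rich cells overlapped it. The P7 level of Csf1r+ cells, 11.9 CPM, rested on few cells, with 12 of 26 UMIs in 1 cell and all 26 within 10 cells. The 6 Sftpc-rich cells of P1 held 20 Vegfa UMIs, or 303 CPM (185 to 469). A group of 13 P1 cells with at least 10 UMIs of Ager, a gene of flat alveolar epithelial cells, was chosen after its values had been seen and held 105 of the 1760 Vegfa UMIs of all kept P1 cells, or 1126 CPM (921 to 1363). No P7 cell passed either limit. Setting the Ager-rich cells apart moved the log2 ratio of P1 over P7 in all kept cells from 0.32 to 0.24.

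Vegfb, a ligand of FLT1 known for its abundance in heart muscle, was at 508 CPM (450 to 571) in 81 Tnnt2-rich cells at P1 and 821 CPM (591 to 1109) in 12 cells at P7. This was 11.0-fold and 18.5-fold above all other kept cells, and of the members only Vegfb was at least 4-fold higher there, with 6.26% of genes at P1 and 27.6% at P7 passing the limit in this small class. It was detected in 65 of 81 and 9 of 12 of these cells. Elsewhere it was widespread, with 74.1 CPM (61.3 to 88.8) and 99.3 CPM (89.8 to 110) in Myh11+ cells, 67.9 CPM and 59.3 CPM in Kcnj8+ cells, and 61.0 CPM and 48.0 CPM in Pdgfra+ cells. Endothelium, at 26.9 CPM and 31.0 CPM, and macrophages, at 25.4 CPM and 36.1 CPM, were near the lymphocyte levels of 37.4 CPM (15.0 to 77.0) and 29.3 CPM (22.3 to 37.9). Because few cardiomyocytes were present among the sorted cells, they held 9.26% of the Vegfb UMIs at P1 and 0.952% at P7.

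Vegfc was the ligand with its highest class level in endothelium, and within it in arterial cells. Cdh5+ cells had 50.5 CPM (47.3 to 53.7) at P1 and 78.4 CPM (75.2 to 81.8) at P7, and held 46.7% and 46.8% of its UMIs. In Gja5+ cells the level was 442 CPM (383 to 506) and 667 CPM (623 to 715), which was 10.9-fold and 12.9-fold above the other Cdh5+ cells, where 2.27% and 2.41% of genes were at least 4-fold higher. Vegfc was detected in 33 of 36 Gja5+ cells at P1 and 127 of 138 at P7, and the 10 cells with the most UMIs held 127 of 206 and 179 of 823. Vegfd also passed 4-fold in Gja5+ cells at P7, through 1 cell with 16 of the 18 UMIs, and in Npr3+ cells at P7 on 3 UMIs, where 5.66% of genes passed (3.11% and no member at P1). The other named subsets had 30.5 CPM or less of Vegfc, except Prox1+ cells at P7, while cells with no subset gene had 83.9 CPM and 143 CPM. Pdgfra+ cells were the second source, with 32.6 CPM (29.9 to 35.5) and 44.1 CPM (41.9 to 46.4). Macrophages were close to 0, with 2 UMIs at each age. Among P1 Aplnr+ cells, the 87 with a UMI of Foxf1, Tbx4 or Hoxa5 had 91.7 CPM (73.1 to 114) of Vegfc, against 20.6 CPM (17.7 to 23.8) in the other 716.

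Vegfd, the other FLT4 ligand, was the least abundant member in all kept cells of P1, at 7.09 CPM (6.43 to 7.80), and reached 14.6 CPM (13.9 to 15.4) at P7. Pdgfra+ cells had 9.69 CPM (8.24 to 11.3) and 18.7 CPM (17.3 to 20.2), and held 38.3% and 45.2% of its UMIs. The cells that passed no gate held 48.3% and 36.9%, at 17.3 CPM (15.0 to 19.8) and 33.3 CPM (30.5 to 36.3), more than any class. Its UMIs lay in few cells. Vegfd was detected in 10.2% of Pdgfra+ cells at P1 and 15.4% at P7, and the 10 P7 fibroblasts with the most UMIs held 140 of 643. Endothelium was at 0.834 CPM and 1.30 CPM.

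Pgf was at 83.0 CPM (69.4 to 98.5) in Myh11+ cells at P1 and 84.0 CPM (75.2 to 93.5) at P7. Pdgfra+ cells followed with 59.5 CPM (55.8 to 63.4) and 66.0 CPM (63.3 to 68.7), and held 51.0% and 57.3% of its UMIs. Endothelium was at 9.49 CPM (8.16 to 11.0) and 9.31 CPM (8.22 to 10.5), with intervals that overlapped the 4.55 CPM (2.08 to 8.64) of P7 lymphocytes. Kcnj8+ cells lay between these, at 29.4 CPM (22.3 to 38.0), at P1, and were at 8.70 CPM (5.69 to 12.8) at P7.

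**Figure D3:**
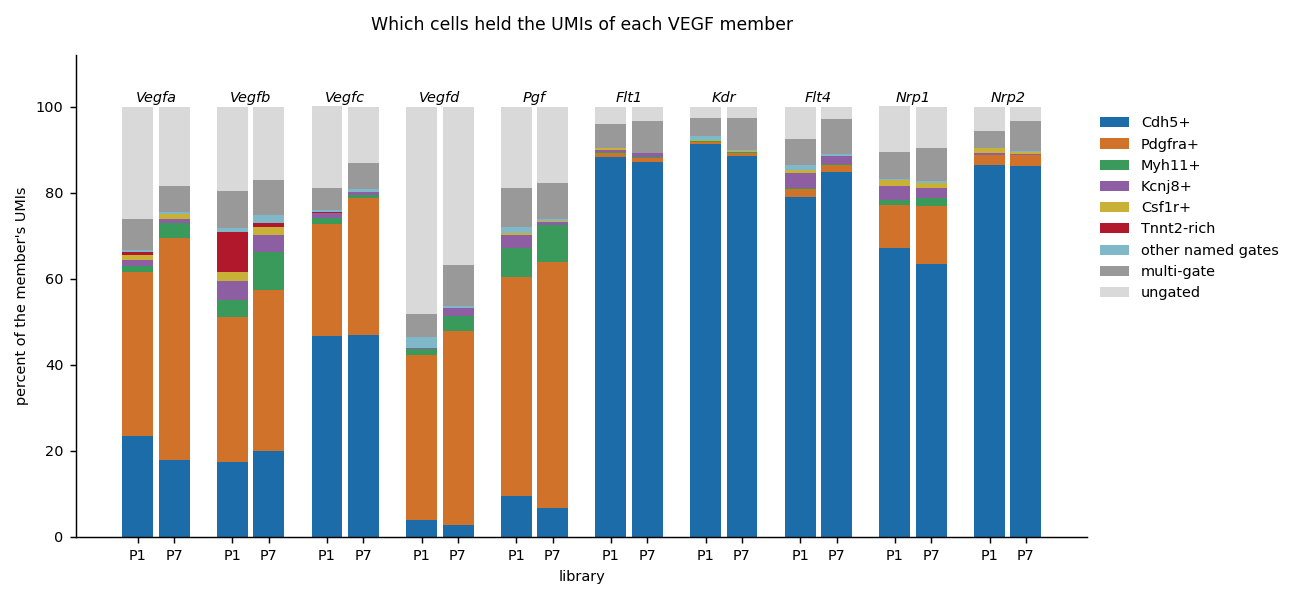
Share of the UMIs of each member (percent, stacked to 100) held by each class of the sorted cells in the P1 and P7 libraries, in which cardiomyocytes were underrepresented. Multi-gate cells passed several gates, ungated cells none, and the other named gates are Upk3b+ cells and lymphocytes. Blue (Cdh5+ cells) fills most of the receptor bars, from 63.3% for Nrp1 at P7 to 91.3% for Kdr at P1, while orange (Pdgfra+ cells) is the largest gated part of Vegfa, Vegfb, Vegfd and Pgf.

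Between the ages most members differed little. A ratio is given as log2 of P1 over P7 after adding 0.5 counts to each sum, so negative values are higher at P7, and a difference of at least 2-fold was counted where a gene had at least 20 UMIs in both libraries together. In all kept cells 1 of 10 members passed, Vegfd at −1.04 (−1.20 to −0.89), where 12.9% of 16534 genes did. The median ratio was −0.23 for the members and 0.00 for all genes. The Vegfd ratio was −0.50 when cells were thinned to 2000 UMIs and −0.71 when CPM was averaged over cells, both short of 2-fold. Vegfd is X-linked and the libraries differ in sex, and the part of sex in this difference was not tested.

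In endothelium 0 of 10 members passed 2-fold, against 9.48% of 13476 genes, and the median ratio was −0.30 for the members and −0.06 for all genes tested. Nrp2 came closest at −0.86 (−0.92 to −0.81), a level 1.82-fold higher at P7. Vegfc followed at −0.64 (−0.75 to −0.53), Vegfd at −0.62 (−1.59 to 0.24) and Flt4 at −0.49 (−0.64 to −0.35). The Vegfd value rests on 16 and 37 UMIs and its interval includes 0. Kdr at −0.29 (−0.33 to −0.26) and Nrp1 at −0.30 (−0.34 to −0.27) were also somewhat higher at P7, while Flt1 at 0.03 (−0.01 to 0.08) and Pgf at 0.03 (−0.25 to 0.31) did not differ beyond counting error. Vegfa was the member higher at P1, at 0.56 (0.36 to 0.77), and the part of RNA from lung epithelial cells of P1 in this was not tested. Without the cells holding a UMI of Foxf1, Tbx4 or Hoxa5, 175 at P1 and 125 at P7, 0 of 10 members passed, with 9.31% of genes, and the ratios were −0.82 for Nrp2, −0.71 for Vegfc, −0.49 for Flt4 and 0.55 for Vegfa.

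The makeup of the endothelium also differed, since Aplnr+ cells were 49.6% of Cdh5+ cells at P1 and 72.9% at P7, and Gja5+ cells 2.22% and 4.31%. Within Aplnr+ cells Nrp2 was at −0.75 (−0.81 to −0.68), Flt4 at −0.52 (−0.72 to −0.33) and Vegfa at 0.63 (0.36 to 0.90), whereas Vegfc at −0.16 (−0.38 to 0.04) was not separated from 0. Without the Aplnr+ cells holding a UMI of Foxf1, Tbx4 or Hoxa5 the Vegfc ratio was −0.53 (−0.78 to −0.29), and 0 of 9 members passed, with 7.69% of genes. In all Aplnr+ cells 0 of 9 members passed 2-fold, with 7.90% of all genes. Vegfc was at −0.59 (−0.82 to −0.37) within Gja5+ cells, where Flt1 was at −0.51 (−0.71 to −0.32). Among cells with no subset gene 0 of 9 passed, with 7.75% of genes, and Vegfa was at 0.91 (0.43 to 1.43) and Vegfc at −0.77 (−0.97 to −0.57). Among the 144 and 98 cells with several subset genes 1 of 8 passed, with 7.54% of genes. This was Vegfc, at 48.9 CPM (39.4 to 59.9) at P1 and 165 CPM (144 to 188) at P7, a ratio of −1.75 (−2.12 to −1.40). In Gja5+ cells 1 of 9 members passed, with 9.02% of all genes, Vegfd at −1.48 (−4.92 to 0.30), and 16 of its 18 P7 UMIs came from 1 cell.

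Endocardial and lymphatic cells were few. In Npr3+ cells 2 of 9 members passed 2-fold, with 10.6% of genes, Pgf at −2.30 (−3.77 to −0.91) from 9 and 11 UMIs and Flt4 at 1.33 (0.15 to 3.14) from 56 and 5 UMIs. In Prox1+ cells 3 of 7 passed, with 12.2% of genes. Flt4 was higher at P7, at −1.24 (−1.78 to −0.72), and Nrp1 at P1, at 1.27 (0.65 to 1.97). Few cells carried both, since the 10 cells with the most UMIs held 43 of 46 Flt4 UMIs at P1 and 85 of 98 at P7. For Nrp1 they held 66 of 76 and 28 of 28. Vegfc had 1 UMI at P1 and 20 at P7, a ratio of −3.93 (−9.85 to −1.83). The 20 UMIs came from 7 of 24 cells, at most 6 from 1 cell. The 6 arterial markers in Prox1+ cells summed to 1121 CPM at P1 and 766 CPM at P7, against 525 CPM and 595 CPM in all Cdh5+ cells. Gja5 was at 0 in both by design, since cells with a Gja5 UMI were left out of this subset. The part of arterial cells in these results was not tested.

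In Pdgfra+ cells 0 of 10 members passed, with 10.8% of 13788 genes. Vegfd at −0.95 (−1.21 to −0.70) was just inside 2-fold and passed it with gates at 3 UMIs (−1.09) and with cells of several gates included (−1.10). Vegfc at −0.43 (−0.58 to −0.29) was again higher at P7 and Vegfb at 0.34 (0.23 to 0.46) higher at P1. In Myh11+ cells 1 of 8 passed, with 8.25% of genes, Vegfd at −1.60 (−3.21 to −0.47). It rested on 6 and 49 UMIs, 48 of the latter in 10 cells. With thinned cells only 3 members had enough UMIs, Vegfd not among them, and 0 passed, with 10.7% of genes. In Tnnt2-rich cells only Vegfb had enough UMIs, and at −0.71 (−1.17 to −0.19) it was short of 2-fold, which 25.2% of genes passed. In Upk3b+ cells 2 of 5 passed, with 9.95% of genes, Kdr at 1.62 (0.93 to 2.44) and Pgf at 1.10 (−0.16 to 2.78). The study reported more Vegfa at P1 in its cluster of epicardial cells. Vegfa in the Upk3b+ cells had 6 UMIs at P1 (7.99 CPM) and 4 at P7 (8.57 CPM), too few to compare. In ungated cells 0 of 10 passed, with 12.3% of genes.

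Pericytes and macrophages held the remaining differences. In Kcnj8+ cells 2 of 10 members passed, with 5.73% of 10679 genes. Pgf was at 29.4 CPM (22.3 to 38.0) at P1 and 8.70 CPM (5.69 to 12.8) at P7, a ratio of 1.74 (1.06 to 2.48), and was detected in 35 of 187 and 12 of 338 cells. The ratio was 0.66 when cells of several gates were included. Vegfd had 1 UMI at P1 and 27 at P7, a ratio of −3.60 (−9.51 to −1.56) that fell to −0.57 with gates at 1 UMI, and 26 of the 27 UMIs lay in 10 cells. The fibroblast genes Col1a1 (1774 and 1883 CPM) and Tcf21 (231 and 156 CPM) were also present in these cells, and their part in these results was not tested. So was the lung-associated Foxf1 (36.0 and 10.4 CPM). Without cells holding a UMI of Foxf1, Tbx4 or Hoxa5, 163 and 315 cells were left and 2 of 10 members passed, with 5.46% of genes. In Csf1r+ cells 3 of 7 members passed, with 8.85% of 9606 genes. Nrp1, at 66.7 CPM (56.8 to 77.9) and 134 CPM (119 to 151), had a ratio of −1.01 (−1.30 to −0.73) and was short of 2-fold under 5 of 17 other settings. Flt1 at 2.37 (0.98 to 4.50), from 25 and 4 UMIs, had the opposite sign with cells of several gates included. Pgf at −1.39 (−3.11 to −0.01) rested on 6 and 15 UMIs, 8 of them in 1 P7 cell, and Col1a1 was at 37.5 CPM at P1 and 335 CPM at P7 in these macrophages, whose part was not tested.

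**Figure D4:**
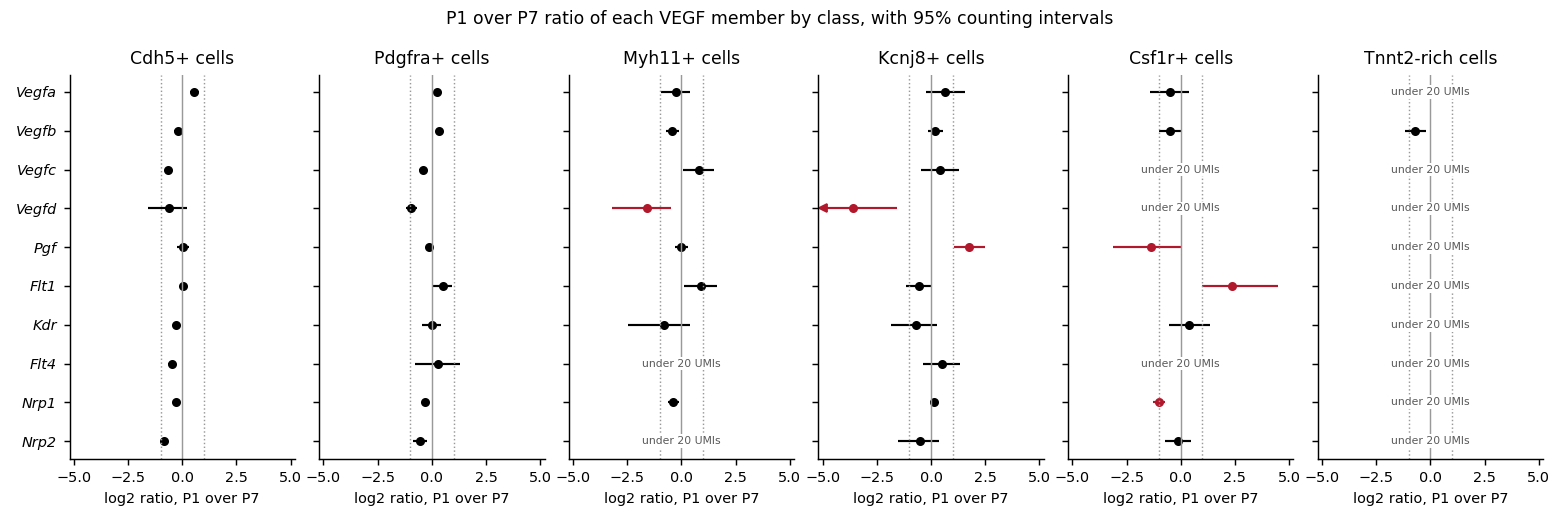
Log2 ratio of P1 over P7 for each member in the 6 classes, with 95% counting intervals (lines). Dotted lines mark 2-fold, red marks the 6 values past it, an arrow shows an interval running off the axis, and members with under 20 UMIs have no point. In Cdh5+ and Pdgfra+ cells, which hold the most UMIs, every member lies inside 2-fold.

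Over the 6 classes 46 of 60 pairs of member and class had enough UMIs, of which the 6 above passed 2-fold. Kdr, Flt4, Nrp2, Vegfa, Vegfb and Vegfc passed in none of the classes where they had enough UMIs. These were 3 classes for Flt4, 4 each for Nrp2 and Vegfc, 5 each for Kdr and Vegfa, and 6 for Vegfb. A list of 34 further genes of the pathway had, in endothelium, 1 of 32 genes with enough UMIs at least 2-fold higher at P1 (5.38% of all genes) and 1 at P7 (4.10%), with a median ratio of −0.02. Ccbe1, which promotes the processing of VEGF-C, was at 4.01 CPM at P1 and 1.62 CPM at P7, a ratio of 1.30 (0.76 to 1.87). In Pdgfra+ cells Ccbe1 had the opposite direction, with 3.33 CPM at P1 and 9.69 CPM at P7, a ratio of −1.53 (−1.98 to −1.13). It was more abundant there than in endothelium at P7 only, and the difference between the classes was not tested. Dll4, a Notch ligand induced by VEGF-A in endothelium, was at 45.1 CPM and 93.0 CPM in Cdh5+ cells, a ratio of −1.04 (−1.16 to −0.93). The next largest ratios in Cdh5+ cells, all short of 2-fold, were those of Adamts14 at 0.93 (−0.04 to 1.94), a relative of the VEGF-C protease, Src at 0.88 (0.41 to 1.36), a kinase downstream of KDR, and Dusp5 at 0.80 (0.44 to 1.15), a phosphatase that restrains ERK signalling. Within Aplnr+ cells 2 of 31 list genes with enough UMIs were at least 2-fold higher at P1 (3.49% of all genes) and 1 at P7 (4.41%). These were Ccbe1 at 1.92 (1.08 to 2.83), from 33 and 19 UMIs, Dusp5 at 1.35 (0.86 to 1.85) and Dll4 at −1.05 (−1.22 to −0.89). Src was at −0.19 (−1.09 to 0.60) there, of the other sign than in all Cdh5+ cells and not separated from 0. The 8 receptor partners of the list had a median ratio of 0.00, the 12 signalling genes with enough UMIs of −0.08 and the 10 target and feedback genes of −0.28.

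The genes most like each member were sought among 12985 genes by Pearson correlation of log2(CPM + 10) over 19 profiles. Each profile was a class or subset of at least 20 cells in 1 library. The 12 Tnnt2-rich cells of P7, the group with the highest Vegfb level, were thus left out, and cardiomyocytes entered through P1 only. The profiles share libraries and Cdh5+ subsets, so the values are a description. Kdr was most like Myct1 (r = 0.994), Cmtm8 and Gimap5, and Flt1 most like C130074G19Rik (0.981), Adgrf5 and Gimap1. Flt4 was most like Mtmr12 (0.933), Sh3gl3 and Trib3. Nrp1 was most like Lrrc8c (0.931), Ggta1 and Cr1l, and Nrp2 most like Sema6b (0.949), Dennd2c and Mycn. Among the ligands, Vegfc was most like Hey1 (0.941), a Notch target of arterial cells, Fez1 and Tpgs2. Vegfb was most like Coq9 (0.956), a gene of coenzyme Q synthesis, D10Jhu81e and Bag2, and Pgf most like E130006D01Rik (0.879), Fat3 and Tgfb3. Likeness was lowest for Vegfd, with Rexo2 (0.829), Smim14 and Atg16l2, and for Vegfa, with Ammecr1 (0.795), Usp46 and Bean1.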

How the data were processed

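Single cell RNA-seq libraries (10x Genomics 3′ kit) of live-sorted cells from P1 and P7 hearts were analysed, 1 per age. The authors aligned the reads to mm10 (GRCm38) with Cell Ranger 3.1.0 and deposited raw UMI counts per gene and barcode, without normalisation. Seurat clusters, Harmony and MAST of the study were not used.

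From these counts, cells were filtered and gated (at least 2 UMIs of the gate gene, for subsets of Cdh5+ cells 1 UMI, and for cardiomyocytes at least 10 Tnnt2 UMIs and 0.3% of all UMIs), UMIs were summed, and CPM, ratios and shares were computed with exact 95% Poisson, conditional binomial and Clopper-Pearson intervals (python 3.11.15, numpy 2.4.6, scipy 1.17.1, pandas 2.3.3). UMIs are counted 1 per molecule and were not scaled by gene length. No doublet caller was used. Exclusive gates left out cells of several classes, but not doublets within a class or with ungated cells. The limit of 8000 genes was exceeded by 0 barcodes at P1 and 1 at P7. Thinning to 2000 UMIs left out shallower cells (1565 of 1619 and 3070 of 3200 Cdh5+ cells remained). Ratios were tested on simulated data. Named are the members, gate genes and markers, the 5 pathway genes with the largest endothelial ratios and the 3 genes most like each member. Also named are Ccbe1 and Adamts14 in Pdgfra+ cells and the Ager-rich cells, chosen after their values were seen. Members, lists and settings were chosen with earlier results of these data known. The alternatives varied the limits, gates, scaling, thinning and added counts.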

Additional observations from a re-analysis of the deposited data

Results flagged for a closer look

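Pgf was higher at P1 in Kcnj8+ cells (log2 ratio 1.74) and higher at P7 in Csf1r+ cells (−1.39), and was listed because the direction differed between these classes. The difference between the classes was not tested, and in Csf1r+ cells the value rests on 6 and 15 UMIs.

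Vegfa in the Sftpc-rich cells of P1, which enter no class, was at 303 CPM (185 to 469) from 20 UMIs in 6 cells. It was listed because the level lay above that of lymphocytes of the same library, 5.34 CPM (0.135 to 29.8).

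Vegfa in the Ager-rich cells of P1 was at 1126 CPM (921 to 1363) from 105 UMIs in 13 cells, and was listed for the same reason. This group was defined after the data had been seen.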

How the results depend on the processing

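No paired analysis was possible because each age had 1 library, and for the same reason no replicate could be left out. The counts of members past 2-fold moved most in the classes with few UMIs. Percentages in brackets are the shares of all genes past 2-fold under the same setting. In Kcnj8+ cells the count of 2 of 10 became 1 of 10 with gates at 1 UMI (6.76%) and 1 of 5 with at least 50 summed UMIs (3.29%). With thinned cells it became 0 of 3 members tested (7.45%), where neither Pgf nor Vegfd had enough UMIs. It became 3 with gates at 3 UMIs (6.15%) or averaged per-cell CPM (8.32%) and 4 with gates not exclusive (6.42%). In Csf1r+ cells the count of 3 of 7 became 1 of 6 with gates at 1 UMI (7.30%) and 1 of 3 with at least 50 summed UMIs (5.43%). With thinned cells it was 1 of 1 member tested (8.31%). It became 2 with gates at 3 UMIs (8.33%), median of ratios scaling (8.47%) or averaged per-cell CPM (10.1%). It was also 2 with a total without mitochondrial, ribosomal and haemoglobin genes (8.68%). It became 4 of 9 members tested with gates not exclusive (12.6%), where Flt1 reversed to −0.48. Without a filter on UMIs it became 5 of 10 (27.3%). In Myh11+ cells 1 became 2 with gates at 1 (9.15%) or 3 UMIs (8.20%), gates not exclusive (7.72%) or averaged per-cell CPM (10.7%). It became 3 with Tnnt2 at 0.1% of UMIs (7.88%). With thinned cells it became 0 of 3 members tested (10.7%), where Vegfd had too few UMIs. In Pdgfra+ cells 0 became 1 with gates at 3 UMIs (10.1%), gates not exclusive (11.1%) or averaged per-cell CPM (11.8%). With thinned cells it was also 1 (7.74%), Flt1 at 2.63, towards P1. In Cdh5+ cells 0 became 1 with gates at 1 UMI (9.67%), Vegfd at −1.55. In Tnnt2-rich cells 0 became 1 of 2 members tested with Tnnt2 at 0.1% of UMIs (36.8%) and 4 of 9 without a filter (47.5%). In all kept cells 1 became 0 with thinned cells (9.91%) or averaged CPM (15.2%). The pathway count of 2 became 0 with gates not exclusive (10.1%). It became 1 with median of ratios scaling (9.59%) or a total without mitochondrial, ribosomal and haemoglobin genes (9.55%). With gates at 1 (9.67%) or 3 UMIs (9.76%) or without a filter on UMIs (26.2%) it became 3, and with averaged CPM 4 (10.9%). The causes were not tested. The count at least 4-fold higher in Cdh5+ cells was 4 or 5 in each library, and 6 members were highest in Cdh5+ cells under all 16 settings that give levels. At P7 Vegfa, and under thinning or with 1 count added also Vegfd, moved from Pdgfra+ to Tnnt2-rich cells under some settings. In the main setting those cells held 1 Vegfa UMI and 0 Vegfd UMIs. This ranking used sums with the added counts, which weigh heavily in so small a class. The move of Vegfd came from the added counts alone and shows no Vegfd in cardiomyocytes. Of 919 log2 ratios recomputed, 862 kept their direction and their side of 2-fold. Summed depth was low in Tnnt2-rich cells (543622 UMIs at P1 and 51178 at P7) and Prox1+ cells (306021 and 275309).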
